A study of Mus musculus with 24 samples.

Results

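The genes described here encode the subunits of the voltage-gated sodium and calcium channels. They were taken from the hypothalamic expression table by name, as ids that start with Cacn, or with Scn followed by a number and a or b, leaving out *Cacng2*, *Cacng8* and ids on Chr 17. The account covers 28 of the 13998 genes measured. They comprise 8 calcium channel alpha1 subunits, 4 alpha2delta, 4 beta and 4 gamma subunits, and 5 sodium channel alpha and 3 beta subunits. *Cacna1h*, which lies on Chr 17, and *Scn2a1*, whose older symbol ends in a digit, stood in the table but outside the rule.

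The samples were hypothalami of 24 male F2 mice that entered the diet test at 10 to 16 weeks of age, with 1 SAGE-Seq library per mouse. Along the subcongenic segment of Chr 17, 12 mice carried *cast/cast* and 12 carried *b6/b6*, while the remaining genome, where all 28 channel genes lie, was *b6/b6* in every mouse. The *cast* segment descended from 1 B6.CAST-17.1 congenic male, so all *cast/cast* mice carry the same donor haplotype. Both genotypes had been offered carbohydrate/protein (C/P) and fat/protein diets for 10 d, had returned to chow, and had then received both diets again for about 48 h before a 4 h fast and dissection. The study picked *cast/cast* mice with high and *b6/b6* mice with low C/P intake, from the 25% tails of each distribution, so genotype and intake cannot be told apart between the groups. C/P intake over the 10 d was 77.8 to 106.6 kcal in the *cast/cast* mice and 27.4 to 41.0 kcal in the *b6/b6* mice.

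Voltage-gated sodium channels open on depolarization and carry the upstroke of the action potential. Voltage-gated calcium channels turn that electrical signal into calcium entry, which releases transmitter and neuropeptide and reaches the nucleus as a signal for transcription. In each family the alpha or alpha1 subunit forms the pore, and the smaller subunits set how many channels reach the membrane and how they gate. Hypothalamic neurons that control feeding, body fluids and hormone release use both families for spontaneous firing and for peptide secretion.

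A SAGE library holds 1 short tag per transcript, cut at the last CATG before the poly(A) tail, so the level of a gene is a number of tags and was not divided by transcript length. The 27-base tags that the GENCODE M21 annotation of GRCm38 predicts for the RefSeq transcripts of the table are printed for the 5 genes on which the results below turn, with the CATG site in capitals.
Cacna2d1, first tag: CATGtcagggtgttggaaactgaaact
Cacna2d1, second tag: CATGaaatgctcattgtgcatcaagca
Cacng4: CATGattccacctaaaaaagctgtgtt
Cacng5: CATGaggggatgggagaatgtatcaac
Cacnb3: CATGctccattaagaacccgccccacc
Scn8a: CATGtatgtgtgtgtgtgtgtgaagaa
Each of these tags lies in the 3' UTR. The first *Cacna2d1* tag, at chr5:16370838-16370864 on the plus strand, ends 4 of its 5 matched transcripts, and the second, at chr5:16374246-16374272, ends the remaining 1. The *Cacng4* tag lies in exon 4 of 4 at chr11:107732748-107732774 on the minus strand, and the *Cacng5* tag in exon 6 of 6 at chr11:107874724-107874750, also on the minus strand. The deposited position of *Cacng4* has its 3' end at chr11:107734779, so the printed *Cacng4* tag lies past it. The *Cacnb3* tag lies at chr15:98644468-98644494 and the *Scn8a* tag at chr15:101045282-101045308, both on the plus strand.

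Transcripts were matched for 27 of the 28 genes, and *Scn9a* was not among them. They gave 35 different tags, of which 29 were in a 3' UTR, 5 in coding sequence and 1 across a stop codon. For 20 genes all matched transcripts ended in 1 tag, and for 7 in several. None of the 35 tags began at a CATG of another annotated gene. As for *Cacng4*, tags of *Cacna1b*, *Cacna1c*, *Cacna1e*, *Cacnb1* and *Cacng7* lay past the 3' end deposited for the gene. The tags that the authors summed for each gene are not part of the values used here, so these sequences describe the reference, not the reads.

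The levels below are normalized counts, that is, tag hits divided by the size factor of the library. Tag hits totalled 7754202 to 13082873 per mouse. All 12 measured genes of a hypothalamic neuron list (14 genes, among them *Hcrt*, *Pmch*, *Agrp* and *Pomc*) had tags in every mouse, with a summed level of 6031 to 30949 among *cast/cast* and 10835 to 28243 among *b6/b6* mice. Of a pituitary list of 7 genes, 3 were measured and all 3 were at 0 in at least 1 mouse of each genotype. Their summed level still varied widely, from 0 to 283 among *cast/cast* and from 0 to 471 among *b6/b6* mice, and was highest in *b6/b6* mouse 12. A few libraries stood apart. The median Spearman correlation with the other 23 mice was lowest for *b6/b6* mouse 12 (0.873), *cast/cast* mouse 6 (0.894), *b6/b6* mouse 6 (0.902) and *cast/cast* mouse 4 (0.924), and values without them are given beside several results. The median study number was higher among *b6/b6* than *cast/cast* mice (269.5 and 120.5), but the ranges overlapped. The 4 mice of lowest correlation had low numbers. These were 27 and 42 for *b6/b6* mice 12 and 6, and 72 and 15 for *cast/cast* mice 6 and 4. *B6/b6* mice 9 and 7 were also low, at 41 and 70, but had median correlations of 0.961 and 0.957. *Cast/cast* mouse 5 was at 258. A link between study number and correlation was not tested.

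None of the 28 channel genes differed between the genotypes by the criteria of the study (unadjusted *P* of at most 0.01 in limma, and a ratio of the mean levels of 1.5 or more), against 1.49% of all genes tested and 0.793% of those outside Chr 17. At an unadjusted *P* of at most 0.05 there were 2, *Cacna2d1* and *Cacng4*, both lower in *cast/cast* mice. This is 7.14% of the channel genes against 8.13% of all genes (7.27% outside Chr 17, and 4.37% when only genes lower in *cast/cast* mice are counted). The count models placed the same 2 genes at *P* of at most 0.05, in edgeR (background 11.6%) and in DESeq2 (background 12.1%), and each called 1, *Cacna2d1* (backgrounds 2.79% and 2.82%). The lowest Benjamini-Hochberg adjusted *P* of limma among the 28 genes was 0.496. On the log2 scale the estimate was below 0, that is, lower in *cast/cast* mice, for 19 genes (67.9%, against 52.7% of all genes) and above 0 for 9. The median was -0.10 against -0.02 over all genes. The standard errors ran from 0.11 to 0.63 with a median of 0.22, close to the 0.23 of all genes.

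**Figure D1:**
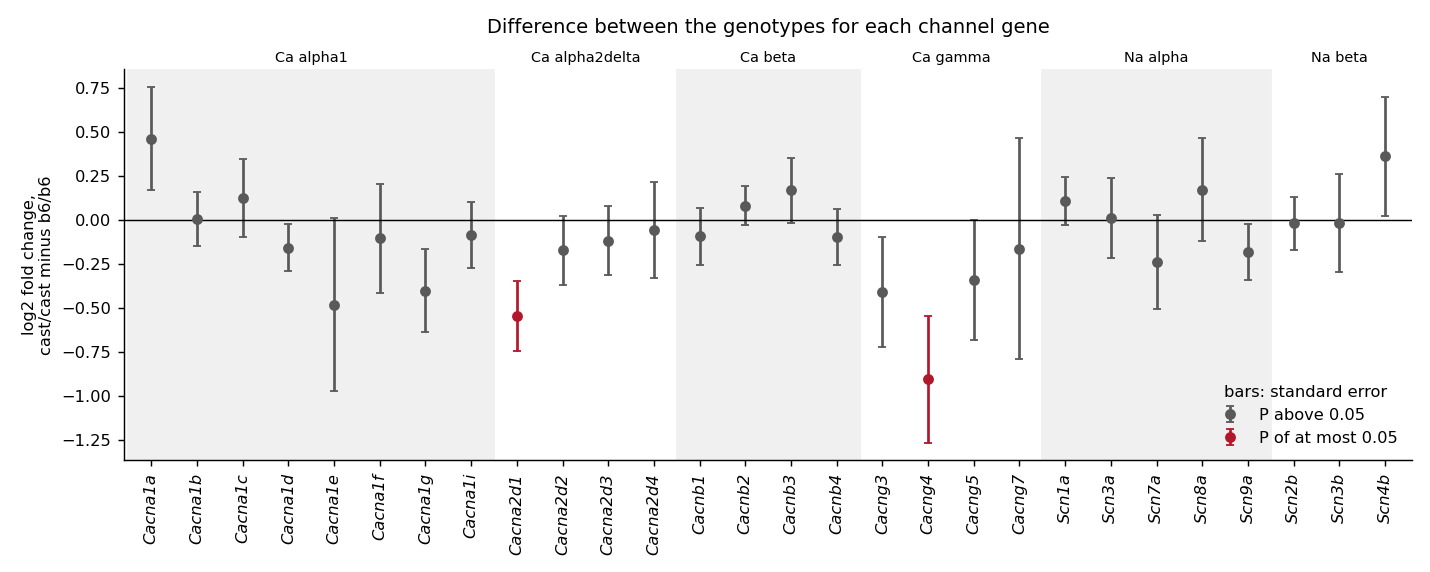
Log2 fold change (*cast/cast* minus *b6/b6*) of each channel gene, grouped by subunit type on the horizontal axis; points are limma estimates from 12 mice per genotype, bars are standard errors, and red marks an unadjusted P of at most 0.05. The estimates run from -0.91 for *Cacng4* to 0.46 for *Cacna1a*, and the 2 red points are *Cacna2d1* and *Cacng4*.

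Levels spanned more than 2 orders of magnitude, from means of 6.54 for *Cacna1f* to 2478 for *Scn3b*. In bulk tissue a lower level can come from fewer cells of a type or from less RNA per cell, and these cannot be told apart. The level of every gene in every mouse is drawn in the plot by subunit type.

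**Figure D2:**
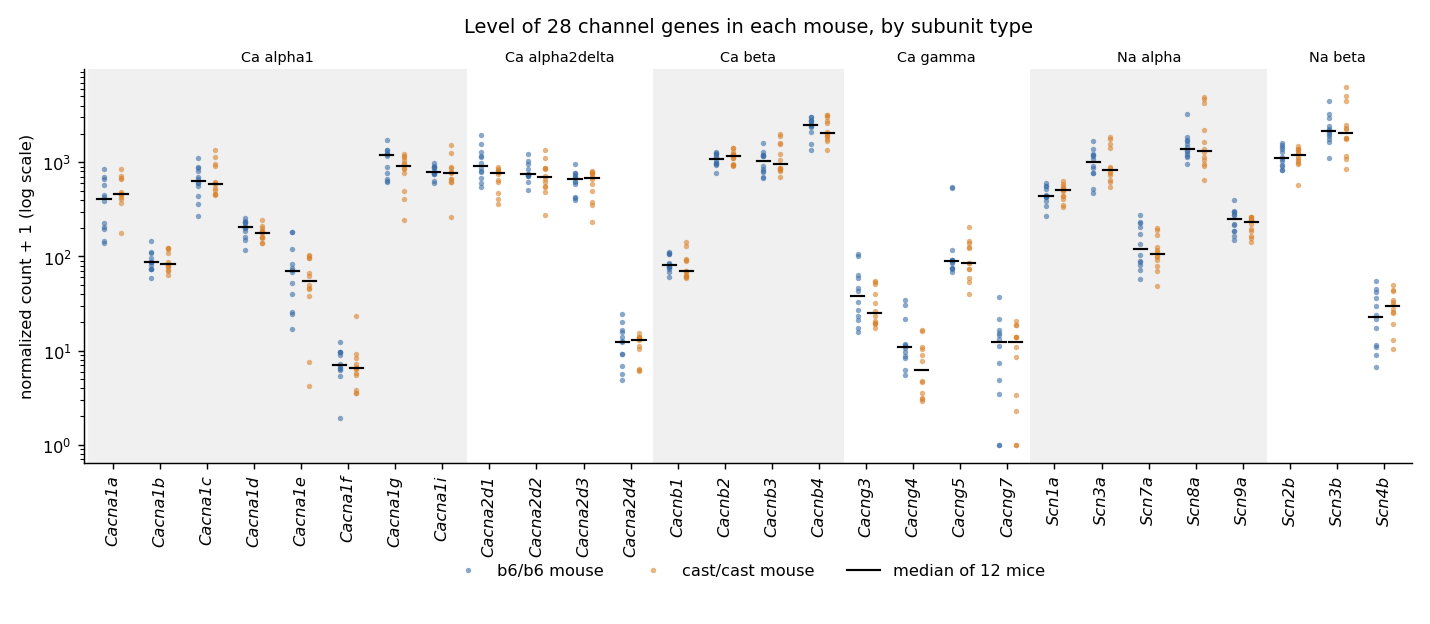
Normalized count plus 1 (log scale) of the 28 channel genes in each of 24 mice, grouped by subunit type; each point is a mouse, blue for *b6/b6* and orange for *cast/cast*, and black lines are medians of 12. The genotypes overlap for every gene, and the levels run from near 1 for *Cacng7* and *Cacna1f* to 6279 for *Scn3b*.

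The pore-forming calcium channel subunits had means of 6.54 to 959, and none of the 8 passed either threshold. *Cacna1g*, a T-type channel that opens near the resting potential and drives burst firing, was the highest. Its level was 622 to 1736 with a median of 1198 among *b6/b6* mice and 244 to 1210.3 with a median of 915 among *cast/cast* mice. The groups overlapped, although 6 of 12 *b6/b6* mice were above all *cast/cast* mice. The log2 fold change was -0.40 ± 0.24 (SE; limma *P* = 0.102, adjusted *P* = 0.639).

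*Cacna1a* encodes the P/Q-type channel of nerve terminals. Its level was 137 to 846 with a median of 408 among *b6/b6* mice, and 177 to 841 with a median of 460.2 among *cast/cast* mice. Mice of both genotypes lay at both ends of the range, and the difference was 0.46 ± 0.29 (*P* = 0.128). *Cacna1d*, an L-type channel that opens at low voltage and serves pacemaking, varied less. It ran from 117 to 255 (median 205) among *b6/b6* and from 138 to 239.99 (median 178) among *cast/cast* mice, and the highest and the lowest of the 24 were different *b6/b6* mice. *Cacna1f*, known as the L-type channel of photoreceptors, was the lowest, at 0.922 to 11.4 with a median of 5.98 among *b6/b6* and 2.54 to 22.6 with a median of 5.48 among *cast/cast* mice. These are 1 to 21 tag hits per mouse, and the log2 fold change was -0.10 ± 0.31 (*P* = 0.7396). The other alpha1 genes were *Cacna1c* and *Cacna1i*, at means of 654 to 807 per genotype, and *Cacna1b* and *Cacna1e*, at 58.6 to 89.5. *Cacna1e*, the R-type channel, was at 15.8 to 183 with a median of 69.5 among *b6/b6* and 3.23 to 102 with a median of 54.5 among *cast/cast* mice. *B6/b6* mice 12 and 6 were the highest, the lowest 2 mice were *cast/cast*, and the log2 fold change was -0.48 ± 0.49 (*P* = 0.334), or -0.17 without *b6/b6* mice 6 and 12. *Cacna1b*, the N-type channel of nerve terminals, had nearly the same mean in both genotypes (89.5 ± 21.6 and 89.4 ± 22.7, SD, n = 12).

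The alpha2delta subunits bring calcium channels to the membrane and to release sites, and those of *Cacna2d1* and *Cacna2d2* bind gabapentin. All 4 had lower estimates in *cast/cast* mice, and 1 of them had *P* of at most 0.05. *Cacna2d1* was at 551 to 1959.8 with a median of 923 among *b6/b6* mice and at 358 to 887 with a median of 764 among *cast/cast* mice. The groups overlapped, with 6 of 12 *b6/b6* mice above every *cast/cast* mouse and *b6/b6* mice 12 and 6 the highest. Means were 1029 ± 417 and 683 ± 181 (SD, n = 12), a ratio of 1.51, and the log2 fold change was -0.55 ± 0.20 (limma *P* = 0.0104, adjusted *P* = 0.496).

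For *Cacna2d1* the direction was the same under all 12 alternatives, with *P* from 0.00366 to 0.291, and the call was not. It met both criteria in edgeR (*P* = 0.00516), in DESeq2 (*P* = 0.00366), with libraries rescaled to the same total (*P* = 0.0059) and without *cast/cast* mice 4, 5 and 6 (*P* = 0.00633). Without *b6/b6* mice 6 and 12 the log2 fold change was -0.37 (*P* = 0.0475), below the minimum ratio. With study numbers of 93 to 288 it was -0.31 (limma *P* = 0.291), but this range kept only *b6/b6* mice 3, 8 and 11 of that genotype. The gene also moved with the mean log2 level of an astrocyte list across mice (r = 0.584, adjusted *P* = 0.0172, permutation test), less so with its summed level (r = 0.371, adjusted *P* = 0.195). Of the list genes 5 had a positive and 3 a negative r with *Cacna2d1*, from 0.605 for *Gfap* to -0.43 for *Slc1a3*. The 8 measured genes of that list summed to 30040 to 35990 among *b6/b6* and 30694 to 42075 among *cast/cast* mice. The part of astrocyte RNA in the difference was not tested.

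*Cacna2d2* and *Cacna2d3* had means of 608 to 797 per genotype. *Cacna2d4*, best known from photoreceptors, was near the lower end of the table, at 3.88 to 23.3 with a median of 11.5 among *b6/b6* mice and 5.08 to 14.3 with a median of 12.1 among *cast/cast* mice. The 4 highest *Cacna2d4* levels were among *b6/b6* mice, and so were the lowest 2.

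The cytosolic beta subunits bind the alpha1 subunit and release it from retention inside the cell. They were the most even group, with coefficients of variation over the 24 mice of 15.4 to 34.4%, and their log2 fold changes lay between -0.10 and 0.17. *Cacnb2* had the smallest standard error of all 28 genes, at 1138 ± 183 among *cast/cast* and 1074 ± 158 among *b6/b6* mice (log2 fold change 0.08 ± 0.11). *Cacnb4* was the highest, at 1336 to 3014 with a median of 2517 among *b6/b6* and 1365 to 3206 with a median of 2052 among *cast/cast* mice. Its range was almost the same in both genotypes. *Cacnb1*, the skeletal muscle isoform that brain also uses, was the lowest, at 59.6 to 111 with a median of 79.9 among *b6/b6* and 58.1 to 141 with a median of 69.0 among *cast/cast* mice. *Cacnb3* ran from 677 to 1587 with a median of 1034 among *b6/b6* and from 697 to 2008 with a median of 969.5 among *cast/cast* mice. For both of these genes *cast/cast* mice 6 and 4 were the highest of all.

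The gamma subunits other than the muscle isoform act mainly as auxiliary subunits of AMPA-type glutamate receptors. They were the most variable group, with coefficients of variation of 65.9 to 101%, and all 4 had lower estimates in *cast/cast* mice. *Cacng4* was at 4.52 to 33.8 with a median of 9.88 among *b6/b6* and 1.91 to 15.4 with a median of 5.29 among *cast/cast* mice, which is 2 to 43 tag hits. Its 3 highest levels were among *b6/b6* mice 4, 12 and 6, and the remaining mice overlapped. The log2 fold change was -0.91 ± 0.36 (limma *P* = 0.0182, adjusted *P* = 0.549). Without *b6/b6* mice 6 and 12 it was -0.69 (*P* = 0.0676), and without *cast/cast* mice 4, 5 and 6 it was -1.05 and met both criteria (*P* = 0.0098).

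*Cacng3* was at 14.7 to 107 with a median of 37.2 among *b6/b6* and 16.5 to 54.3 with a median of 23.98 among *cast/cast* mice. *Cacng5* was at 66.7 to 550.3 with a median of 88.5 among *b6/b6* and 39.2 to 205 with a median of 84.6 among *cast/cast* mice. In both genes *b6/b6* mice 6 and 12 were the highest of the 24, and the other mice overlapped. For *Cacng3* the log2 fold change was -0.41 ± 0.31 (*P* = 0.203), and -0.12 without these 2 mice. *Cacng5* had a ratio of means of 1.62 with these 2 mice (log2 fold change -0.34 ± 0.34, *P* = 0.325), and without them the ratio was 1.18 with *cast/cast* mice higher. *Cacng7* was at 0 in 4 mice and reached 35.9.

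**Figure D3:**
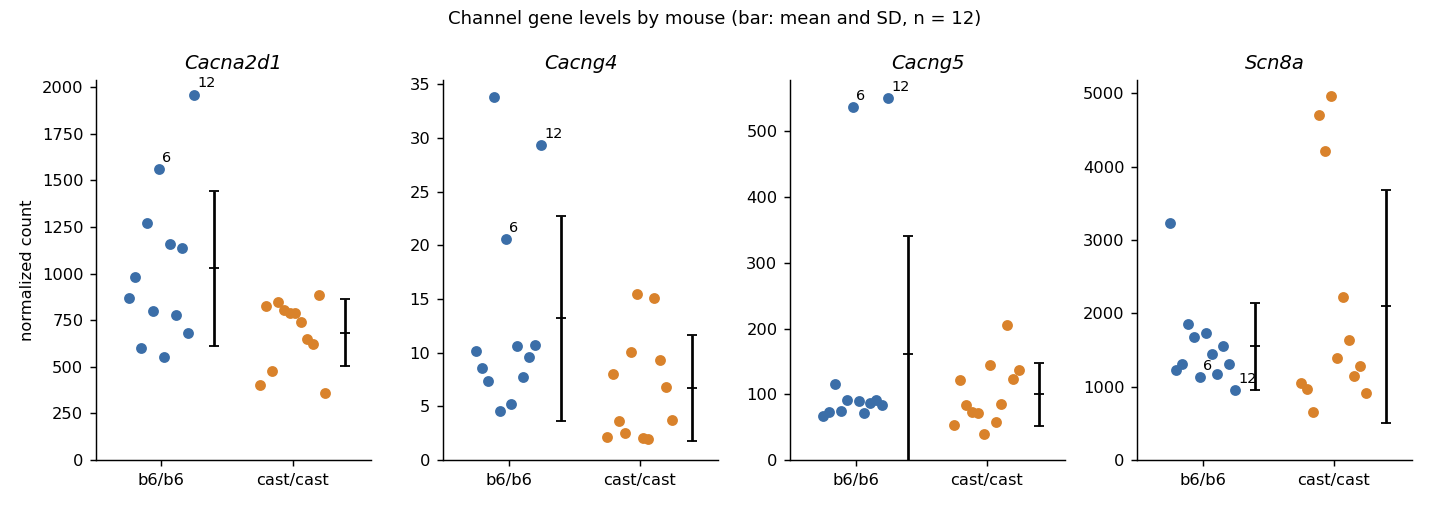
Normalized counts of *Cacna2d1*, *Cacng4*, *Cacng5* and *Scn8a* in each mouse, *b6/b6* in blue and *cast/cast* in orange, with mean and SD (n = 12) beside the points; *b6/b6* mice 6 and 12 are numbered, and the lower SD bar of *Cacng5* in *b6/b6* mice ends at the axis because the SD exceeds the mean. Those mice are the highest 2 for *Cacna2d1* and *Cacng5* and 2 of the highest 3 for *Cacng4*, and for *Scn8a* 3 *cast/cast* mice stand above all others.

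Among the 5 sodium channel alpha subunits none passed either threshold in limma. *Scn8a*, the main channel of the axon initial segment in adult neurons, was the highest. It ran from 951 to 3235 with a median of 1383 among *b6/b6* and from 652 to 4962.5 with a median of 1333 among *cast/cast* mice. *Cast/cast* mice 6, 4 and 5 stood above all others, at 4962, 4708 and 4220, while the medians of the genotypes were close. The log2 fold change was 0.17 ± 0.29 and turned to -0.32 (*P* = 0.126) without these 3 mice. *Scn3a*, which is most abundant before birth, ran from 471 to 1669 with a median of 1003 among *b6/b6* and from 545 to 1842 with a median of 825 among *cast/cast* mice. The lowest 2 mice were *b6/b6* mice 12 and 6, and the groups overlapped throughout.

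*Scn9a*, known from pain neurons and also present in the hypothalamus, was at 149 to 399 with a median of 247 among *b6/b6* and 141 to 264 with a median of 229 among *cast/cast* mice. Of the *b6/b6* mice, 6 were above all *cast/cast* mice, yet *b6/b6* mouse 6 was the second lowest of the 24. The log2 fold change was -0.18 ± 0.16 (*P* = 0.267), and without the 4 least similar mice it was -0.33 (*P* = 0.0495). *Scn1a*, a channel of inhibitory interneurons, varied little, at 483 ± 92.0 among *cast/cast* and 450.1 ± 95.4 among *b6/b6* mice. *Scn7a*, the sodium-sensing channel of circumventricular organs, had the lowest mean of the 5. It was at 56.03 to 275 with a median of 118 among *b6/b6* and 47.6 to 202 with a median of 105 among *cast/cast* mice. The 4 highest *Scn7a* levels were among *b6/b6* mice and the lowest was *cast/cast*, and the log2 fold change was -0.24 ± 0.27 (*P* = 0.378).

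The sodium channel beta subunits are cell adhesion proteins that alter gating and place channels at the membrane. *Scn3b* had the highest mean of all 28 genes, at 1107 to 4508 with a median of 2151 among *b6/b6* and 846 to 6279 with a median of 2043 among *cast/cast* mice. The highest and the lowest mouse were both *cast/cast*.

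*Scn4b*, which supports resurgent sodium current, was the lowest, at 5.72 to 53.5 with a median of 21.6 among *b6/b6* and 9.53 to 48.4 with a median of 28.6 among *cast/cast* mice. A *b6/b6* mouse was the highest and another the lowest. *Scn2b* differed least between the genotypes in this group in mean level, at 1155 ± 250.2 and 1169.5 ± 275.

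*B6/b6* mice 6 and 12 were together the highest 2 of the 24 mice for 5 of the 28 channel genes, *Cacna1e*, *Cacna2d1*, *Cacng3*, *Cacng5* and *Cacng7*. This is 17.9%, where the share among all genes was 18.6%. They were the lowest 2 for *Cacna1c* and *Scn3a* (7.14% against 11.8%). *Cast/cast* mice 4, 5 and 6 were the highest 3 for *Scn8a* (3.6% of the channel genes against 2.9% of all genes). They were the lowest 3 for *Cacna2d3* (3.6% against 2.7%). *B6/b6* mouse 12 alone was more than 2-fold from the median of all mice for 7 channel genes, and for 35.3% of all genes.

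Whether the channel genes varied with intake inside a genotype was tested as the slope of log2 level on the C/P kcal of the 10 d test, which preceded tissue collection. In *cast/cast* mice none of the 28 genes had *P* of at most 0.01 in limma (background 0.421%), edgeR or DESeq2, and 2, *Cacna1a* and *Scn7a*, had *P* of at most 0.05 in limma (background 2.41%). In *b6/b6* mice none had *P* of at most 0.01 in limma either, against 9.28% of all genes, and 6 had *P* of at most 0.05 (background 23.8%). These were *Cacna1a*, *Cacna2d1*, *Cacnb4*, *Cacng4*, *Cacng5* and *Scn2b*. At *P* of at most 0.01 edgeR (background 11%) and DESeq2 (background 13.6%) each placed 3 genes, *Cacna2d1*, *Cacng4* and *Cacng5*.

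All 3 of these genes had lower levels in *b6/b6* mice of higher intake. The limma slope was -0.0887 ± 0.033 log2 units per kcal for *Cacna2d1* (SE; *P* = 0.0161, adjusted *P* = 0.128), -0.145 ± 0.052 for *Cacng4* (*P* = 0.014) and -0.148 ± 0.062 for *Cacng5* (*P* = 0.0316). *B6/b6* mouse 12 had the lowest intake (27.4 kcal), and it was the highest *b6/b6* mouse for *Cacna2d1* and *Cacng5*. Without it the slopes were -0.0609 (*P* = 0.219), -0.14 (*P* = 0.0953) and -0.0364 (*P* = 0.667), and the share of all genes at *P* of at most 0.01 fell to 1.09%. Without mice 6 and 12 the slope of *Cacng5* was 0.0424 (*P* = 0.242) and no channel gene passed 0.01 (background 1.72%). The difference between the slopes of the genotypes had *P* of at most 0.01 for 3 channel genes, *Cacna1a*, *Cacna2d1* and *Cacng4*, a number close to the background of 9.93%. Of these, *Cacna1a* alone remained without *b6/b6* mouse 12 (background 1.52%) and without *b6/b6* mice 6 and 12 (background 1.46%). No *cast/cast* mouse was left out of this test.

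**Figure D4:**
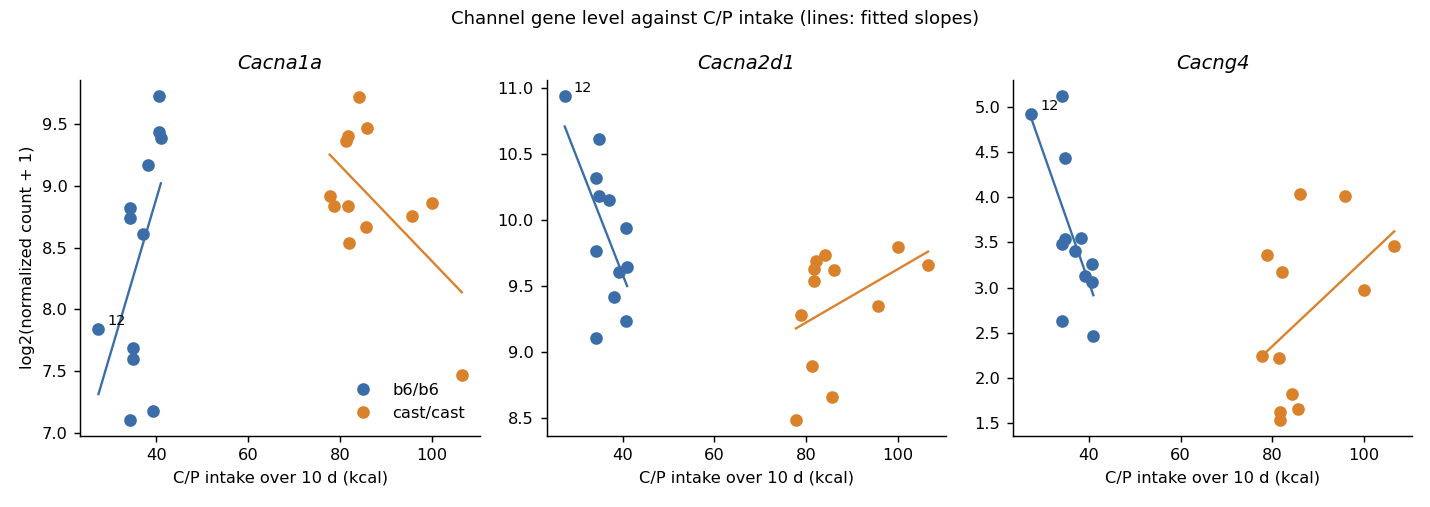
Log2(normalized count + 1) of *Cacna1a*, *Cacna2d1* and *Cacng4* against the C/P intake over 10 d in kcal; each point is a mouse, blue for *b6/b6* and orange for *cast/cast*, lines are fitted slopes within a genotype, and *b6/b6* mouse 12 is numbered. For *Cacna1a* the slopes are 0.125 among *b6/b6* and -0.0387 among *cast/cast* mice, and for *Cacna2d1* and *Cacng4* they have the opposite signs, with -0.0887 and -0.145 among *b6/b6* mice.

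Channel gene levels were also set against marker lists of cell types across the mice. Each gene was correlated with the mean log2 level of 11 lists, both taken as deviations from the mean of the genotype, which gave 308 pairs over 24 mice. Of these, 74 pairs in 18 of the 28 genes had an adjusted *P* of at most 0.05 (permutation test, Benjamini-Hochberg over the 308), 30 positive and 44 negative. The weakest had an absolute r of 0.503, a value reached by 23.1% of the pairs of all genes with these lists, so the number of pairs was close to that background. With libraries rescaled to the same total 77 of 280 pairs passed, 59 of them among the 74, and 40 of the 77 were positive. Pairs of a list whose level fell into separate clusters were not counted, which left 280 in some settings. All genes of 1 library share its RNA and its depth. Without the 2 mice farthest from the median of each list 43 of 308 pairs passed, 37 of them among the 74. Without the 4 least similar mice 29 of 280 passed, 26 of them among the 74. A set of 20 pairs passed with all mice and in both of these versions.

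The genes of a list did not always move together, so the sign of a relation could depend on how the list was read. With the log2 of the summed level, which follows the most abundant genes of a list, in place of the mean of the log2 levels, 20 of the 74 pairs had the opposite sign. These were all 11 pairs of the microglia list and all 9 of the cortex, hippocampus and striatum list, and for the other lists each of the 54 pairs kept its sign.

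*Cacnb3* had the largest absolute r, with the mean log2 level of the microglia list (r = -0.885, rho = -0.847, permutation *P* = 1e-05 for each, the smallest value that 100000 resamples can give, adjusted *P* = 0.000513 for r). It was as large inside each genotype, at -0.886 among *cast/cast* and -0.886 among *b6/b6* mice (n = 12 each), at -0.905 without the 2 farthest mice and at -0.852 without the 4 least similar. Of all genes outside the list, 40 (0.286%) had an r as large. With the summed level of the list r was 0.53 (adjusted *P* = 0.0398). *Cacnb3* went against 6 of the 8 microglia genes, among them *C1qa* (r = -0.861), *Tyrobp* (-0.8199) and *Csf1r* (-0.818), and with the other 2, *Cx3cr1* (0.804) and *C1qb* (0.496). *Cx3cr1* alone made up 53.5% of the summed level. All 8 microglia genes had tags in every mouse, and their summed level was 2085 to 4164 among *cast/cast* and 1974 to 3249 among *b6/b6* mice.

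*Scn8a* was higher in mice with a lower level of the hypothalamic neuron list (r = -0.790, rho = -0.829, adjusted *P* = 0.000513), a relation as strong in 0.25% of all genes. The summed level gave nearly the same value (r = -0.803), and 10 of the 12 list genes had a negative r. It held without the 2 farthest mice (r = -0.636, adjusted *P* = 0.022) and without the 4 least similar (r = -0.678). Inside the genotypes r was -0.860 among *cast/cast* mice and -0.455 among *b6/b6* mice (*P* = 0.138). With the list of general neuronal genes r was 0.715, but 0.246 (adjusted *P* = 0.42) with libraries rescaled to the same total, and 5 of its 10 genes had a positive and 5 a negative r.

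*Scn3a* was higher in mice with a lower level of the oligodendrocyte precursor list (r = -0.761, rho = -0.720, adjusted *P* = 0.000513), as strongly as 3.53% of all genes. The relation held without the 2 farthest mice (r = -0.649), without the 4 least similar (r = -0.634) and with the summed level (r = -0.533, adjusted *P* = 0.0405). *Cacnb4* had a similar relation with the same list (r = -0.760, rho = -0.716), which held without the 2 farthest mice (-0.596, adjusted *P* = 0.0331) and not without the 4 least similar (-0.523, adjusted *P* = 0.107) or with the summed level (-0.355, adjusted *P* = 0.214). *Cacng5* went the other way (r = 0.779, rho = 0.790, adjusted *P* = 0.000513), with r = 0.59 among *cast/cast* and 0.871 among *b6/b6* mice. It was 0.556 without the farthest 2 (adjusted *P* = 0.05002), 0.452 without the 4 least similar (adjusted *P* = 0.181) and 0.181 with the summed level (adjusted *P* = 0.581). *Gpr17* was the gene of the list with the largest absolute r for all 3, at -0.819 for *Scn3a*, -0.8003 for *Cacnb4* and 0.814 for *Cacng5*. The next largest was that of *Sox10*, at -0.353, -0.44 and 0.47 in the same order. *Pdgfra*, which made up 70.7% of the summed level, had -0.092, 0.097 and -0.322, so these relations were mainly with *Gpr17*. The 6 precursor genes summed to 1383 to 2009 among *cast/cast* and 1371 to 2433 among *b6/b6* mice.

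**Figure D5:**
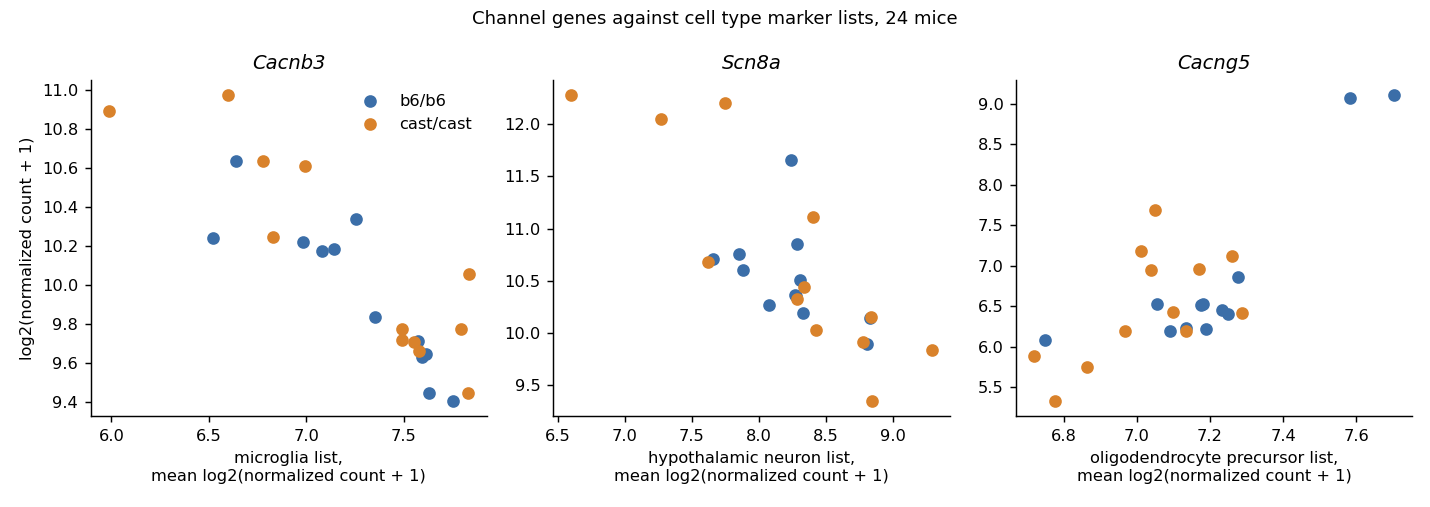
Log2(normalized count + 1) of *Cacnb3*, *Scn8a* and *Cacng5* against the mean log2 level of the microglia, hypothalamic neuron and oligodendrocyte precursor lists in 24 mice, *b6/b6* in blue and *cast/cast* in orange. *Cacnb3* falls with the mean log2 level of the microglia list in both genotypes (r = -0.885; with the summed level r is 0.53), *Scn8a* falls with the hypothalamic neuron list (r = -0.790), and for *Cacng5* 2 *b6/b6* mice stand far above the rest.

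By list, the called pairs numbered 11 for microglia, where 39.9% of all genes had an absolute r of the weakest called pair or more, 10 for oligodendrocyte precursors (34.3%), 9 for neurons (30.7%) and 9 for cortex, hippocampus and striatum (25.8%). There were 8 each for hypothalamic neurons (25.6%), oligodendrocytes (25.4%) and choroid plexus and ependyma (22.8%), and 7 for endothelial and mural cells (32.2%). The pituitary had 3 (5.46%), astrocytes 1 (10.3%), and thalamus and habenula 0 (1.49%). *Scn4b*, which is rich in the striatum, had r = 0.660 with the mean log2 level of the cortex, hippocampus and striatum list and -0.588 with its summed level. *Cacng7* had 0.706 and -0.744, and *Scn9a* -0.638 and 0.581. *Rgs9* made up 79.2% of the summed level of that list, while 5 of its 9 genes among *cast/cast* and 4 among *b6/b6* mice were at 0 in at least 1 mouse.

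The partners of the channels were read from 3 lists outside Chr 17, 68 measured genes in all. By the criteria of the study 1 was higher and 1 lower in *cast/cast* mice, both from the calcium stores, pumps, exchangers and buffers. This is 2 of 68, next to 1.49% of all genes. *Pvalb*, a calcium buffer of fast-spiking neurons, was at 0 to 31.5 with a median of 9.19 among *b6/b6* and 9.30 to 42.0 with a median of 20.7 among *cast/cast* mice. The groups overlapped, and the log2 fold change was 1.303 ± 0.40 (limma *P* = 0.00298, adjusted *P* = 0.289). *Ncs1*, a calcium sensor that regulates channels and transmitter release, was at 307 to 599 with a median of 369 among *b6/b6* and 77.5 to 452 with a median of 264 among *cast/cast* mice. The groups overlapped here as well, with a log2 fold change of -0.81 ± 0.25 (*P* = 0.00298, adjusted *P* = 0.289). Neither was below 0.01 in edgeR (0.0102 and 0.0104), which called *Atp2b3* instead, a calcium pump of the plasma membrane (log2 fold change -0.93, *P* = 0.00446).

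*Hpca*, a calcium sensor of the same family as *Ncs1*, had a mean of 10306 ± 3249.8 among *cast/cast* and 6983 ± 2599.9 among *b6/b6* mice and missed the minimum ratio (log2 fold change 0.57 ± 0.20, *P* = 0.00832). Among 15 genes of a list of sodium channel clustering and modulation none was called. This list also held the leak channel *Nalcn* with *Unc79* and *Unc80*. At *P* of at most 0.05 there were 3 of the 15, all lower in *cast/cast* mice. Of all genes 8.13% had such a *P* in either direction, and 4.37% had it and were lower in *cast/cast* mice. *Nrcam*, an adhesion protein of the axon initial segment and node, was at 381 ± 94.0 among *b6/b6* and 282 ± 44.1 among *cast/cast* mice (log2 fold change -0.42 ± 0.13, *P* = 0.00397, ratio 1.35). *Nalcn*, the sodium leak channel, had -0.39 ± 0.17 (*P* = 0.0264), and -0.23 (*P* = 0.114) without *b6/b6* mice 6 and 12. *Fgf13*, a cytosolic modulator of sodium channels, had -1.19 ± 0.55 (*P* = 0.0401) in limma and -0.69 in edgeR (*P* = 0.0974) and DESeq2 (*P* = 0.0793). Among 28 presynaptic and cytosolic calcium channel partners 1 had *P* of at most 0.05, next to 8.13% of all genes (4.37% lower in *cast/cast* mice). This was *Camk2g*, a subunit of the calmodulin-dependent kinase that phosphorylates calcium channels, at -0.34 ± 0.14 (*P* = 0.0188).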

How the data were processed

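The signal values deposited by the authors are tag hits per gene for each of 24 mice, that is, reads mapped to mouse RefSeq mRNA (build GRCm38) by SOLiD SAGE Analysis Software in a modified form, then scaled by dividing each library by its size factor from DESeq. The deposited table also holds the authors' own comparison, with a ratio column of mean normalized counts, its log2 values and p-value columns from DESeq, none of which were used. The 13998 genes of the table (19529 rows, repeats identical) have a mean normalized count of at least 6.03, and all 28 channel genes described passed the minimum of 5. A further 2 that the naming rule finds are not reported here.

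Whole tag hits were recovered for 100% of the values (tolerance 0.05), as multiples of 1 step per library. The main test was limma 3.58.1 (lmFit, then trended eBayes) on log2(normalized count + 1) across all genes, so fold changes of low genes are understated. Given these tag hits, edgeR 4.0.16 and DESeq2 1.42.0 called 391 and 395 genes of the whole table at the same thresholds, against 208 in limma. On simulated data for the genotype comparison, with 13987 genes in limma, the thresholds called 82% of genes changed 2-fold, 98.0% of those changed 4-fold and 0.762% of unchanged ones. The simulated counts were independent between genes and held no libraries that stood apart, unlike these data, so the shares need not hold here. No 2 of the 276 pairs of libraries were alike enough to be 1 library (lowest chi-square per degree of freedom 15.4). Replicate numbers were given in accession order. Marker correlations used 100000 permutations (two-sided).

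The values of all mice are given for genes called in any comparison, the 10 with the lowest *P* between genotypes, the highest and lowest of each subunit type, and the 5 most correlated with a marker list. In the partner lists the called genes and at most 3 per list were named. The genes and lists were chosen with earlier results of these data known. Alternatives were edgeR, DESeq2, a minimum mean of 20, pseudocounts of 0.5 and 5, rescaling to equal totals, the study number or 2 principal components as covariates, study numbers of 93 to 288, adjusted *P*, no minimum ratio, and leaving out mice. The summed level of the marker lists was an alternative chosen after seeing the data, and genes that only an alternative counted were named after their values were seen. Also not planned was leaving out *b6/b6* mouse 12, *b6/b6* mice 6 and 12, or *cast/cast* mice 4, 5 and 6. For the marker pairs, leaving out the 4 least similar mice was not planned either. Computations used R 4.3.3 and Python 3.11.15 (pandas 2.3.3, numpy 2.4.6, scipy 1.17.1; plots with matplotlib 3.10.9).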

Additional observations from a re-analysis of the deposited data

Results flagged for a closer look

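For the slope of log2 level on C/P intake, the interaction term of genotype and intake in limma over 24 mice had *P* of at most 0.01 for 3 of the 28 channel genes. Of all genes 9.93% passed, so the number of channel genes was close to that background. The intake ranges of the genotypes did not overlap, so a difference of slopes cannot be told apart from a curved relation with intake. The difference of slopes, *cast/cast* minus *b6/b6*, in log2 units per kcal, was -0.164 ± 0.053 (SE) for *Cacna1a* (*P* = 0.00459), 0.109 ± 0.036 for *Cacna2d1* (*P* = 0.00569) and 0.193 ± 0.065 for *Cacng4* (*P* = 0.00675). The adjusted *P* over all genes was 0.0732 for *Cacna1a*, 0.0796 for *Cacna2d1* and 0.0854 for *Cacng4*.

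Without *b6/b6* mouse 12, the mouse of the lowest intake, only *Cacna1a* stayed at *P* of at most 0.01 (-0.227, *P* = 0.00416), where 1.52% of all genes did. It stayed there without *b6/b6* mice 6 and 12 as well (*P* = 0.00894). *Cast/cast* mouse 5 had the highest intake (106.6 kcal) and the lowest *Cacna1a* level of the *cast/cast* mice (177). The difference of slopes was not tested without *cast/cast* mouse 5, with the study number or in a count model. The P/Q-type channel gene had a slope of 0.125 ± 0.054 in *b6/b6* mice (*P* = 0.0356) and -0.0387 ± 0.015 in *cast/cast* mice (*P* = 0.0254), neither of which was called on its own. In edgeR its slope in *cast/cast* mice did not reach *P* of at most 0.05.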

How the results depend on the processing

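No channel gene was called between the genotypes in limma or in 10 of the 14 alternatives. *Cacna2d1* was the 1 gene called in edgeR, 1 in DESeq2 and 1 with libraries rescaled to the same total, and without *cast/cast* mice 4, 5 and 6 there were 2, *Cacna2d1* and *Cacng4*. At *P* of at most 0.05 the count of 2 became 1 with a minimum mean of 20 or without *b6/b6* mice 6 and 12 (*Cacna2d1*), and 1 with study numbers of 93 to 288, where it was *Cacna2d4*. That range kept only *b6/b6* mice 3, 8 and 11 and left out *cast/cast* mice 4 and 6. The count became 3 with the study number as a covariate (with *Cacna1a*), without *cast/cast* mice 4, 5 and 6 (with *Cacna2d2*) and without the 4 least similar mice (*Cacna2d1*, *Cacnb4* and *Scn9a*). With 2 principal components it was 2, *Cacnb4* and *Scn9a*. In *cast/cast* mice the count of slopes stayed at 0 under all 8 alternatives. In *b6/b6* mice the count of 0 in limma became 3 in edgeR and 3 in DESeq2, and stayed at 0 under the other 7. The count of 2 called partners became 4 with no minimum ratio, 3 in DESeq2 and with the study number as a covariate (with *Atp2b3*), 1 in edgeR (*Atp2b3*), 1 with 2 principal components or without *b6/b6* mice 6 and 12 (*Pvalb*), 1 with a minimum mean of 20 (*Ncs1*), and 0 with adjusted *P* or study numbers of 93 to 288. Without *cast/cast* mice 4, 5 and 6 it was 2, *Hpca* and *Ncs1*. Between the genotypes the share of all genes was obtained for limma, edgeR and DESeq2 alone. The counts of channel and partner genes under the other alternatives therefore have no background beside them. The 74 of 308 marker pairs became 43 of 308 without the 2 farthest and 29 of 280 without the 4 least similar mice. With the summed level of the lists 59 of 280 passed, 44 of them among the 74, of which 16 had the opposite sign. The causes of these shifts were not tested.

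The sign of the log2 fold change turned for *Cacng5* to 0.21 with 2 principal components, 0.17 with study numbers of 93 to 288, 0.11 without *b6/b6* mice 6 and 12 and 0.25 without the 4 least similar mice. It turned to 0.12 for *Cacna1e* with 2 principal components, and with study numbers of 93 to 288 to 0.36 for *Cacng3* and 0.021 for *Cacna1d*. The other alternatives of the 10 genes with the lowest *P* kept their direction. Rescaling libraries to the same total moved the median of all genes from -0.02 to -0.11 and that of the channel genes from -0.10 to -0.18. The share of channel genes lower in *cast/cast* mice ran from 14 of 28 with study numbers of 93 to 288 to 22 of 28 with this rescaling or without *cast/cast* mice 4, 5 and 6. Among all genes it was 52.7% in the main test, and it was not obtained under the alternatives. Study number and genotype were partly confounded, and the range of 93 to 288 held only *b6/b6* mice 3, 8 and 11 of that genotype. *Cacng7*, at 0 in 4 mice, had the largest standard error (0.63). No paired analysis was possible because the labels number no replicates.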
